A study of Danio rerio with 17 samples.

Results

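The genes described here are transcription factors that set and maintain the hepatocyte programme, measured in livers of transgenic zebrafish with liver cancer genes. The set was hnf4a, hnf1ba, foxa1, foxa2, foxa3, cebpa, prox1a, onecut1 and onecutl. Members were found by symbol in the annotation of the array's probe sets, taking only probe sets with a single gene symbol and, for each gene, the brightest probe set, judged by its mean log2 signal across arrays. By that rule 8 of the 9 genes were found, on 13 of the 75212 probe sets and among 20908 genes. For hnf1ba no probe set matched, so hnf1ba is not analysed here.

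Hepatocyte identity is held by a network of factors that bind each other's regulatory regions. FoxA proteins open closed chromatin as liver forms from endoderm, Onecut and Prox1 proteins act in the budding liver, where Onecut factors also take part in forming bile ducts and pancreas, and the nuclear receptor Hnf4a and the leucine zipper protein C/ebpa drive genes of plasma proteins, glucose and lipid metabolism in mature hepatocytes. These roles are known mostly from mouse.

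Each array held the RNA of liver from adult female fish aged 6 months. Fish of the HBx,src,p53 line carry the hepatitis B virus X gene and src and are labelled p53-/+, which the sample labels of the HBx,src line do not add. In both lines the transgenes are driven by the fabp10a promoter, which is active in hepatocytes. Fish were overfed with OF by oral gavage at 300 mg/kg from 4 months of age (DIO+OF), overfed (DIO, 83 mg of Artemia cysts per fish per day) or fed normally (NOR, 6.9 mg). OF is Oligo-Fucoidan, a preparation of the sulfated polysaccharide of brown seaweed. HBx,src,p53 gave 3 DIO+OF, 3 DIO and 2 NOR arrays, and HBx,src gave 3 arrays of each group. The fish without OF are labelled as mock, and the sources used here do not say if they received a gavage. The effect of OF therefore cannot be told apart from that of a gavage. Nor do the labels say how many fish were behind an array, so p values measure the spread between these arrays, which may be in part technical.

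All HBx,src,p53 arrays were labelled batch 2 and all HBx,src arrays batch 1. Line and batch cannot be told apart, and levels were compared only within a line. The array medians were 2.55 to 2.68 in HBx,src,p53 and 2.10 to 2.21 in HBx,src, in log2 signal units. The interquartile range of an array was 2.89 to 3.34 in HBx,src,p53 and 1.80 to 2.03 in HBx,src. The sizes of fold changes may therefore not be on a like scale in the 2 lines, which also bears on the tests between lines. The hepatocyte marker fabp10a was bright in every array, at 12.08 to 13.26 log2 units. A single array stood apart. In DIO+OF replicate 3 of HBx,src,p53 the yolk precursor vtg2, made by the liver of egg-laying females, was at 2.76, against 13.75 to 14.04 in the other 16 arrays, and the estrogen receptor esr1 was at 5.89, against 9.76 to 10.82 in the rest of its line. Calls that were lost without this array are given with their value, or with the count of their list, without it. Since these are bulk livers, fewer hepatocytes and less RNA per hepatocyte cannot be told apart.

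Differences below are log2 fold changes from a limma fit over all 75212 probe sets and 17 arrays, with their standard error (SE). A gene was called where the Benjamini-Hochberg adjusted p over all probe sets was under 0.05. The 3 comparisons below were made in each line. DIO+OF against NOR gave the joint change with overfeeding and OF, DIO+OF against DIO the change with OF, and DIO against NOR the change with overfeeding. Any pair of these shares the arrays of a group, so they are not independent of each other.

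In HBx,src,p53 livers onecutl, foxa1 and foxa2 were higher in DIO+OF than in NOR, and onecutl was also higher in DIO+OF than in DIO. Judged by the brightest probe set, no member was called lower in any comparison of either line, and HBx,src had no called member. A dimmer probe set of cebpa was called lower in DIO+OF than in NOR of HBx,src,p53, as given below. By comparison, DIO+OF against NOR in HBx,src,p53 called 3 of 8 members, all higher, against 6.3% of all genes called and 3.4% called higher. DIO+OF against DIO in that line called 1 of 8, against 2.35% of genes called and 1.71% called higher. DIO against NOR called 0 of 8, against 3.0% of genes, although 5 members had an unadjusted p under 0.05, against 19.1% of genes. In HBx,src the counts called were 0 of 8 for DIO+OF against NOR (0.191% of genes), 0 of 8 for DIO+OF against DIO (0.732% of genes) and 0 of 8 for DIO against NOR (0.0% of genes). The members with an unadjusted p under 0.05 in these HBx,src comparisons numbered 3, 4 and 0, in the same order, against 10.5%, 16.0% and 7.56% of genes.

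A looser threshold, that of the study's methods, took genes with at least a 2-fold change and an unadjusted p under 0.05. It took 4 of 8 members for DIO+OF against NOR in HBx,src,p53, against 13.9% of genes, 2 for DIO+OF against DIO, against 7.95%, and 4 for DIO against NOR, against 9.77%. For HBx,src it took 3 members for DIO+OF against NOR, against 4.48% of genes, 3 for DIO+OF against DIO, against 7.65%, and 0 for DIO against NOR, against 2.34%.

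**Figure D1:**
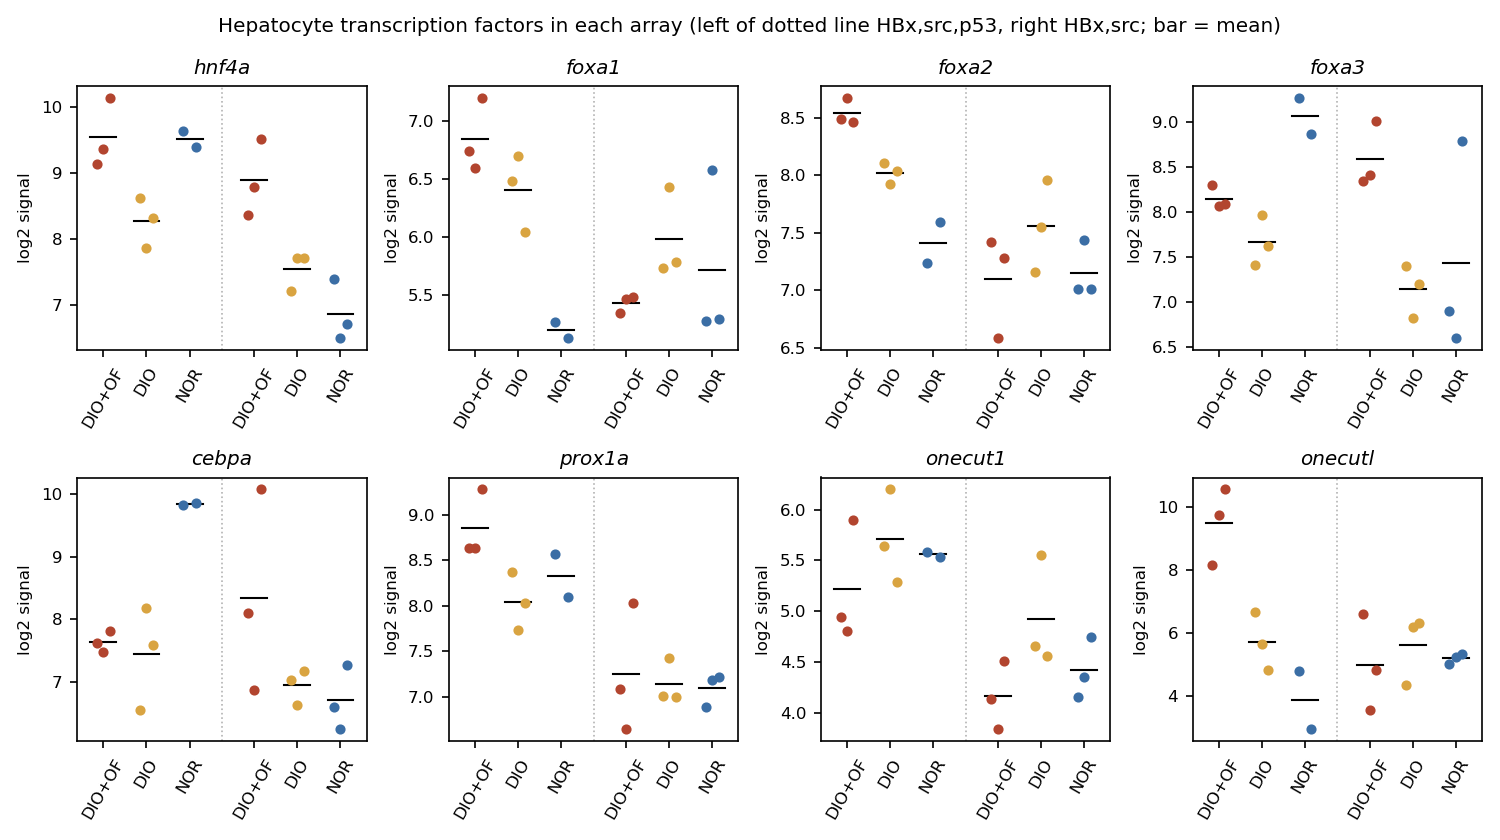
Log2 signal of each member in every array (points) with the group mean (bar). HBx,src,p53 groups stand left of the dotted line and HBx,src groups right of it, with n = 3 arrays per group except 2 for NOR in HBx,src,p53. The 3 onecutl values of HBx,src,p53 DIO+OF livers lie between 8.14 and 10.54, above all other arrays of that line.

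**Figure D2:**
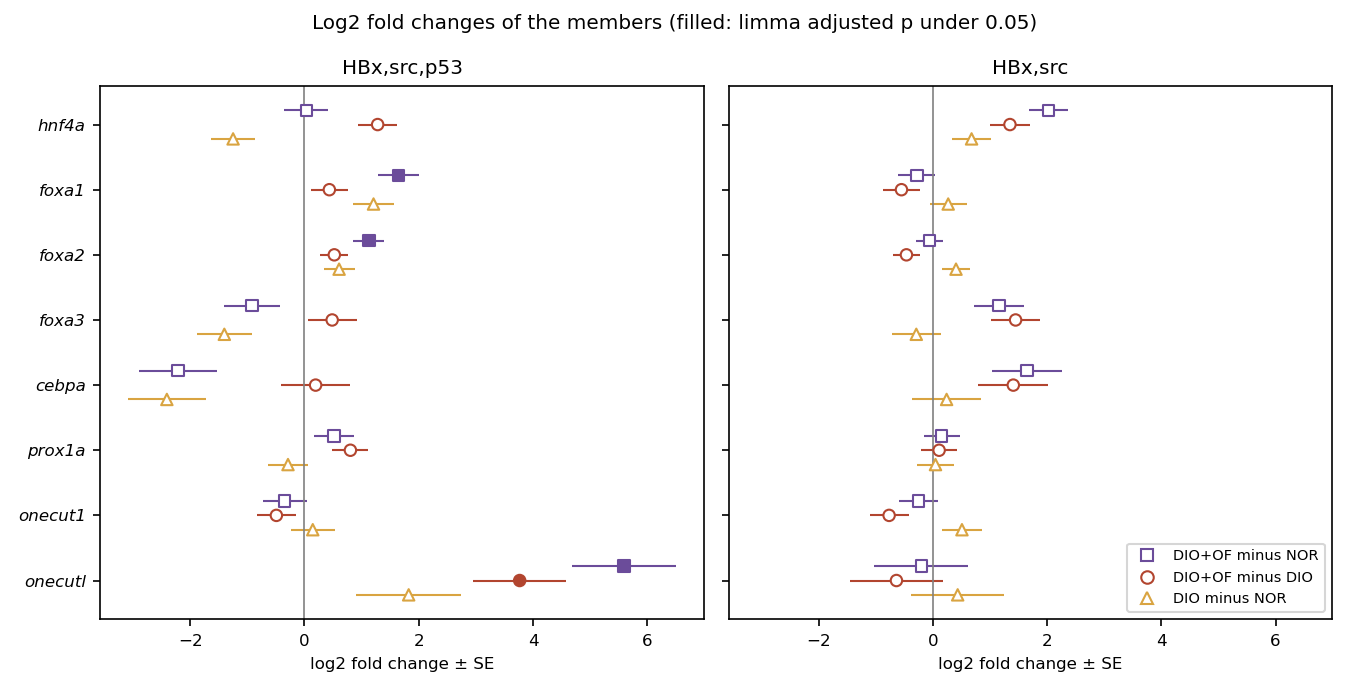
Log2 fold change of each member with its standard error in the 3 comparisons of each line, with filled symbols for an adjusted p under 0.05. The 4 filled symbols, all in HBx,src,p53, are onecutl in 2 comparisons and foxa1 and foxa2 in DIO+OF against NOR.

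The largest change of any member was that of onecutl, a Onecut homeobox gene which RefSeq also lists under the older names onecut and onecut1. Its log2 signal in HBx,src,p53 was 8.14, 9.74 and 10.54 in DIO+OF, 6.66, 5.64 and 4.82 in DIO, and 4.81 and 2.96 in NOR. The 3 groups did not overlap, with DIO+OF highest and NOR lowest, but DIO and NOR nearly met, and the 2 NOR arrays were far apart. onecutl rose in DIO+OF over NOR by 5.59 ± 0.91 log2 units (SE, adjusted p = 0.00632). The 2 NOR arrays had a median of 2.62 and 2.60 over all probe sets, so NOR replicate 2 lay near the level of the median probe set, and with no detection calls at hand the size of this rise is uncertain. Over DIO it rose by 3.77 ± 0.82 (adjusted p = 0.0366), a 13.6-fold change that ranked 9 of 20908. The difference between DIO and NOR was 1.82 ± 0.91 (adjusted p = 0.35).

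The onecutl call against NOR was lost without NOR replicate 2, the dimmest array (4.66, adjusted p = 0.0765), and held in the other 25 alternatives. The call against DIO was held in 18 of 26. It was lost without DIO+OF replicate 3, the array without vitellogenin (3.23, adjusted p = 0.153), without DIO+OF replicate 2 (3.63, 0.0963), without DIO replicates 2 (3.73, 0.0856) or 3 (3.32, 0.112), without HBx,src NOR replicates 1 (3.77, 0.0509) or 3 (3.77, 0.0502), which enter through the shared spread, in the line fitted alone (0.097) and with the replicate number as a block (0.105).

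In HBx,src the onecutl signal was 6.59, 3.57 and 4.83 in DIO+OF, 4.37, 6.21 and 6.32 in DIO, and 5.01, 5.24 and 5.35 in NOR. All 3 groups overlapped, and the DIO+OF arrays spanned the values of every other array of the line. The change with OF was -0.64 ± 0.82 and against NOR -0.20 ± 0.82, with the sign of both turning without DIO+OF replicate 2 (0.08 and 0.51). The change with OF differed between the lines by 4.40 ± 1.16 (HBx,src,p53 minus HBx,src, adjusted p = 0.102), which missed the threshold.

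Its relative onecut1 was called in no comparison. The HBx,src,p53 values were 4.94, 4.81 and 5.90 in DIO+OF, 5.64, 6.20 and 5.28 in DIO, and 5.59 and 5.54 in NOR. Those of HBx,src were 4.14, 3.83 and 4.50 in DIO+OF, 4.66, 5.55 and 4.56 in DIO, and 4.15, 4.35 and 4.74 in NOR. Groups overlapped except in HBx,src, where all 3 DIO+OF arrays lay below all 3 DIO arrays, with a difference of -0.77 ± 0.34 (SE, adjusted p = 0.411). A second probe set of onecut1 gave -0.01 ± 0.26 there, and the 2 probe sets correlated with r = 0.63 over the 17 arrays. The second probe set averaged 1.91 in DIO+OF and 1.92 in DIO of HBx,src. Both lay below the array medians of these groups (2.11 to 2.21), so it could hardly have shown a fall.

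foxa1 and foxa2, forkhead pioneer factors that act in endoderm before liver genes are on, both rose in DIO+OF over NOR in HBx,src,p53. For foxa1 the values were 6.74, 6.60 and 7.20 in DIO+OF, 6.49, 6.70 and 6.04 in DIO, and 5.27 and 5.13 in NOR. DIO+OF and DIO overlapped, and both lay at least 0.77 log2 units above the NOR arrays. The change over NOR was 1.64 ± 0.36 (adjusted p = 0.0238, 3.13-fold) in DIO+OF and 1.21 ± 0.36 (adjusted p = 0.0907, or 0.0305 without HBx,src NOR replicate 2) in DIO, and between DIO+OF and DIO it was 0.44 ± 0.32.

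For foxa2 the values in HBx,src,p53 were 8.49, 8.67 and 8.47 in DIO+OF, 8.10, 7.92 and 8.04 in DIO, and 7.24 and 7.59 in NOR. No 2 groups overlapped, and the widest group spanned 0.35 log2 units. The rise in DIO+OF over NOR was 1.13 ± 0.27 (adjusted p = 0.0356, 2.19-fold). The steps of 0.52 ± 0.24 between DIO+OF and DIO (adjusted p = 0.338) and 0.61 ± 0.27 between DIO and NOR (adjusted p = 0.28) were not called.

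Both calls rest on the 2 NOR arrays and on the array without vitellogenin. Without DIO+OF replicate 3, foxa1 was at 1.47 (adjusted p = 0.0713) and foxa2 at 1.17 (adjusted p = 0.0684). Without NOR replicate 1 foxa1 was at 1.71 (0.0957) and foxa2 at 0.95 (0.231), and without NOR replicate 2 they were at 1.58 (0.157) and 1.31 (0.107). The foxa2 call was also lost without DIO+OF replicates 1 (1.16, 0.0642) or 2 (1.06, 0.105), under a trended robust prior (0.057) and with the replicate block (0.109).

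In HBx,src foxa1 measured 5.35, 5.47 and 5.49 in DIO+OF, 5.73, 6.43 and 5.79 in DIO, and 5.28, 6.58 and 5.30 in NOR. The DIO+OF arrays lay below the DIO arrays (-0.55 ± 0.32, adjusted p = 0.575), while NOR replicate 2 was the highest array of the line. foxa2 measured 7.42, 6.59 and 7.28 in DIO+OF, 7.16, 7.55 and 7.96 in DIO, and 7.01, 7.44 and 7.01 in NOR, with all groups overlapping and a change with OF of -0.46 ± 0.24 (adjusted p = 0.512). Both genes thus had estimates of opposite sign with OF in the 2 lines. The differences between the lines, 0.99 ± 0.45 for foxa1 (adjusted p = 0.389) and 0.98 ± 0.34 for foxa2 (adjusted p = 0.228), were not called.

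The third forkhead gene, foxa3, lay below NOR in both overfed groups of HBx,src,p53, where foxa1 and foxa2 lay above it. Its HBx,src,p53 values were 8.30, 8.07 and 8.09 in DIO+OF, 7.41, 7.97 and 7.62 in DIO, and 9.27 and 8.87 in NOR. The groups did not overlap, with NOR highest, DIO+OF between and DIO lowest. The differences were -0.92 ± 0.48 for DIO+OF against NOR (adjusted p = 0.405), 0.49 ± 0.43 for DIO+OF against DIO (adjusted p = 0.668) and -1.40 ± 0.48 for DIO against NOR (adjusted p = 0.148). The last of these passed with the line fitted alone (adjusted p = 0.04) and without HBx,src NOR replicate 3 (0.0187).

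foxa3 in HBx,src measured 8.34, 8.41 and 9.01 in DIO+OF, 7.40, 6.82 and 7.20 in DIO, and 6.90, 6.60 and 8.79 in NOR. All DIO+OF arrays lay above all DIO arrays, and NOR replicate 3 was the second highest array of the line, apart from the other NOR arrays by 1.90 log2 units. The difference with OF was 1.45 ± 0.43 (adjusted p = 0.169) and that of DIO+OF against NOR 1.16 ± 0.43 (adjusted p = 0.505). Without NOR replicate 3 they were 1.45 (adjusted p = 0.0248) and 1.84 (adjusted p = 0.0374), and DIO against NOR turned sign, at 0.39 in place of -0.29 ± 0.43.

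cebpa, a basic leucine zipper factor of mature hepatocytes and fat cells, had the most negative differences of the set within a line. These were DIO+OF and DIO against NOR in HBx,src,p53. Arrays of HBx,src,p53 measured 7.61, 7.48 and 7.80 in DIO+OF, 6.54, 8.17 and 7.59 in DIO, and 9.82 and 9.86 in NOR. Both NOR arrays lay 1.65 or more log2 units above every overfed array of the line, and the DIO+OF values fell inside the range of DIO. The difference was -2.21 ± 0.68 for DIO+OF against NOR (adjusted p = 0.0984) and -2.41 ± 0.68 for DIO against NOR (adjusted p = 0.0776), which ranked 66 from the bottom of 20908 genes. With OF it was 0.20 ± 0.61, and turned sign without DIO replicate 1 (-0.25).

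These cebpa differences missed the threshold in the fit over both lines and passed it in some alternatives. With the line fitted alone the adjusted p was 0.0416 against NOR for DIO+OF and 0.043 for DIO. Without HBx,src DIO+OF replicate 3 they were 0.0185 and 0.0142, and without HBx,src DIO+OF replicate 2 they were 0.0409 and 0.0356, with unchanged fold changes. In HBx,src the DIO+OF arrays of cebpa spread over 3.21 log2 units.

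The HBx,src values of cebpa were 8.09, 6.87 and 10.08 in DIO+OF, 7.03, 6.62 and 7.16 in DIO, and 6.59, 6.23 and 7.27 in NOR. DIO+OF replicate 3 was far above the rest of the line, and DIO+OF replicate 2 lay within the DIO range. The difference was 1.65 ± 0.61 against NOR (adjusted p = 0.501) and 1.41 ± 0.61 against DIO (adjusted p = 0.392). Of the 3 probe sets of cebpa, 2 held equal values, and the remaining probe set gave -2.43 ± 0.62 for DIO+OF against NOR in HBx,src,p53 (adjusted p = 0.0459), which is past the threshold, and -2.43 ± 0.62 for DIO against NOR (adjusted p = 0.053).

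hnf4a, the nuclear receptor that acts as a central activator of hepatocyte genes, had all its DIO+OF arrays above all DIO arrays in both lines. Its signal in HBx,src,p53 was 9.13, 9.37 and 10.14 in DIO+OF, 8.62, 7.86 and 8.32 in DIO, and 9.64 and 9.39 in NOR. DIO was the lowest group, while the DIO+OF arrays overlapped the NOR arrays. The differences were 1.28 ± 0.34 for DIO+OF against DIO (adjusted p = 0.0877), -1.25 ± 0.39 for DIO against NOR (adjusted p = 0.102) and 0.03 ± 0.39 for DIO+OF against NOR (adjusted p = 0.991). The last was -0.26 without DIO+OF replicate 3.

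The hnf4a signal in HBx,src was 8.36, 8.80 and 9.52 in DIO+OF, 7.21, 7.71 and 7.70 in DIO, and 7.39, 6.50 and 6.71 in NOR. DIO+OF stood above both other groups, which overlapped at NOR replicate 1. The difference was 2.03 ± 0.34 against NOR (adjusted p = 0.052, unadjusted p = 4.37e-05), a 4.07-fold change that ranked 84 of 20908 genes. It was 1.35 ± 0.34 against DIO (adjusted p = 0.106) and 0.68 ± 0.34 for DIO against NOR (adjusted p = 0.86).

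The adjusted p of 0.052 lay next to the threshold and crossed it in 5 of 26 alternatives. These were leaving out the dimmest 40% of probe sets (0.0384), testing only probe sets with 1 symbol (0.0196), array weights (0.0302), and leaving out HBx,src DIO+OF replicate 1 (2.29, 0.0157) or HBx,src,p53 DIO+OF replicate 3 (2.03, 0.0417). The difference with OF in HBx,src also passed without DIO+OF replicate 1 (1.62, adjusted p = 0.0349).

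The other 2 probe sets of hnf4a correlated with the first at r = 0.96 and 0.92 over the 17 arrays. For DIO+OF against NOR in HBx,src they gave 1.62 ± 0.33 (adjusted p = 0.102) and 1.23 ± 0.51 (adjusted p = 0.588). For DIO+OF against DIO in HBx,src,p53 they gave 1.04 ± 0.33 and 1.46 ± 0.51. For DIO against NOR they were below 0 in HBx,src,p53 (-0.98 ± 0.37 and -1.25 ± 0.57) and above 0 in HBx,src (0.83 ± 0.33 and 0.36 ± 0.51). All 3 probe sets of hnf4a therefore shared the sign of each of these differences.

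**Figure D3:**
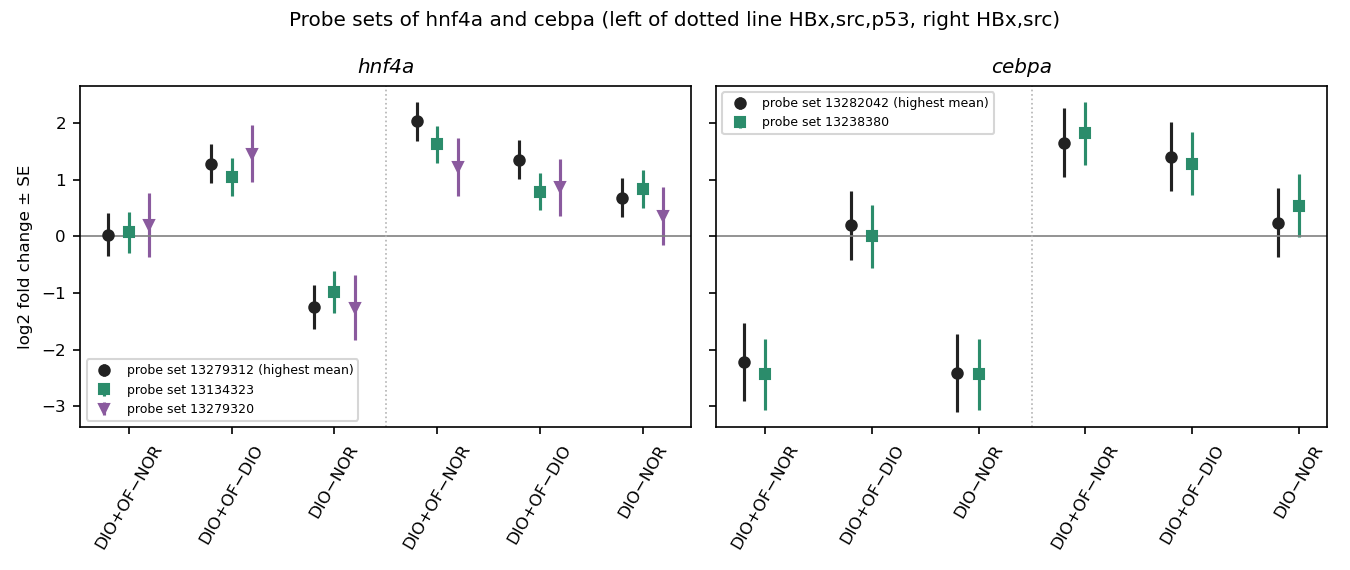
Log2 fold changes with standard errors for each probe set of hnf4a and each distinct probe set of cebpa, with HBx,src,p53 left and HBx,src right of the dotted line. The 3 hnf4a probe sets lie above 0 for DIO+OF against DIO in both lines, and below 0 in HBx,src,p53 but above 0 in HBx,src for DIO against NOR.

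prox1a, a homeobox gene that marks hepatoblasts and hepatocytes and also lymphatic endothelium, was called in no comparison. Its levels in HBx,src,p53 were 8.63, 8.64 and 9.28 in DIO+OF, 8.37, 7.74 and 8.03 in DIO, and 8.57 and 8.09 in NOR. DIO+OF stood above both other groups, which overlapped. The difference was 0.80 ± 0.32 against DIO (adjusted p = 0.244) and 0.52 ± 0.35 against NOR (adjusted p = 0.584).

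The prox1a levels in HBx,src were 7.08, 6.64 and 8.03 in DIO+OF, 7.00, 7.42 and 7.00 in DIO, and 6.89, 7.18 and 7.22 in NOR. The DIO+OF arrays spanned those of the other groups. Differences were 0.16 ± 0.32, 0.11 ± 0.32 and 0.05 ± 0.32 for DIO+OF against NOR, DIO+OF against DIO and DIO against NOR. The first 2 turned sign without DIO+OF replicate 3 (-0.23 and -0.28).

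Counted over the set, the arrays of 6 of 8 members did not overlap between DIO and NOR in HBx,src,p53, with 3 members higher (onecutl, foxa1, foxa2) and 3 lower (hnf4a, foxa3, cebpa) in DIO. In that comparison, of 3 against 2 arrays, 39.1% of all genes did not overlap. Between DIO+OF and NOR it was 6 members (4 higher, 2 lower) against 38.9% of genes, and between DIO+OF and DIO 5 members, all higher, against 24.2%. In HBx,src the corresponding counts were 1 member against 13.6% of genes for DIO+OF against NOR, 4 members (2 higher, 2 lower) against 18.2% for DIO+OF against DIO and 0 against 13.6% for DIO against NOR. The median size of the members' differences between DIO and NOR, regardless of sign, was 1.23 log2 units in HBx,src,p53, against 0.32 over all genes, and 0.35 in HBx,src, against 0.21 over all genes. For DIO+OF against DIO it was 0.51 in HBx,src,p53, against 0.30 over all genes, and 0.70 in HBx,src, against 0.25. The values and shares over all genes include dim genes, which can hardly show a fall, and were not matched to the members by signal.

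Whether a change differed between the lines was tested as HBx,src,p53 minus HBx,src. No member was called for overfeeding (0 of 8, against 0.0622% of all genes) or for OF (0 of 8, against 1.3%), while 2 and 3 members had an unadjusted p under 0.05, against 10.5% and 18.2% of genes. At the methods' threshold these counts were 2 and 1, against 7.47% and 13.3% of genes. For overfeeding these 2 were hnf4a (-1.93 ± 0.52, adjusted p = 0.177) and cebpa (-2.65 ± 0.92, adjusted p = 0.31). For OF the estimate of hnf4a was -0.07 ± 0.49, with a sign that varied among the alternatives. onecutl passed for OF when only probe sets with 1 symbol were tested (4.40, adjusted p = 0.0498) and without HBx,src DIO+OF replicate 1 (5.20, adjusted p = 0.0282).

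Members also varied together from array to array. Over the 17 arrays, with each line's mean subtracted, the highest Pearson r between members were 0.79 for foxa3 with cebpa and 0.79 for foxa2 with onecutl, and the lowest were -0.62 for foxa1 with foxa3 and -0.61 for foxa1 with cebpa. Within the lines, foxa3 and cebpa had r = 0.92 over 8 HBx,src,p53 arrays and 0.74 over 9 HBx,src arrays. foxa2 and onecutl had r = 0.85 and 0.81, and foxa1 and foxa3 -0.65 and -0.68. Arrays of a group share diet and OF, so part of each r is the group differences given above, and these values are descriptions.

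**Figure D4:**
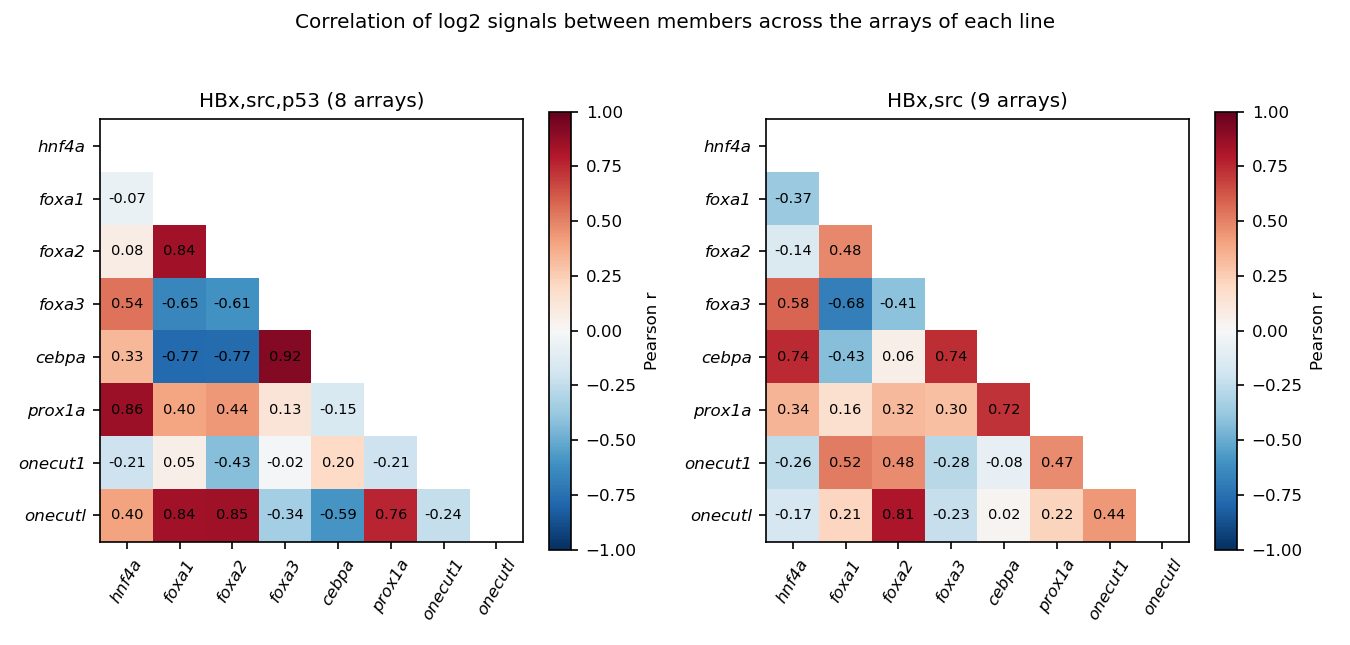
Pearson r between the log2 signals of members across the 8 HBx,src,p53 arrays (left) and the 9 HBx,src arrays (right). In both lines foxa3 and cebpa are positively correlated (0.92 and 0.74), as are foxa2 and onecutl (0.85 and 0.81), and foxa1 and foxa3 are negatively correlated (-0.65 and -0.68).

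With clone and predicted gene names passed over, the genes whose pattern was most like hnf4a over the 17 arrays, line means subtracted, were nherf1b (r = 0.96), glceb (r = 0.92) and pck1 (r = 0.92). pck1 encodes the enzyme that commits oxaloacetate to glucose synthesis. For onecutl the nearest were tcea3 (0.93), appl1 (0.92) and slc22a2 (0.92). For foxa1 they were capn1b (0.89), rin2a (0.89) and smad10a (0.87), and for foxa2 rgn (0.86), mgaa (0.85) and fam217ba (0.85). Each was picked as the highest of 20908 genes less those passed over, so these values are high by choice.

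A list of 25 other liver transcription factors and nuclear receptors held 21 measured genes. For HBx,src,p53, DIO+OF against NOR called 2 higher (nr3c1 and creb3l3a) and 1 lower (nr0b2b), DIO+OF against DIO called 2 higher (gata4 and cebpd), and DIO against NOR called 0. The calls were held in 18 of 26 alternatives for nr3c1 (adjusted p up to 0.291), in 20 for creb3l3a (up to 0.37) and in 10 for cebpd (up to 0.183). Without DIO+OF replicate 3 of that line, which lacks vitellogenin, they were all lost, at 1.20 for nr3c1 (adjusted p = 0.105), 1.74 for creb3l3a (0.0863) and 2.63 for cebpd (0.183), against 1.35, 1.78 and 3.09 with it. nr3c1 (1.1) and creb3l3a (1.14) were lost without NOR replicate 2 or either of the other DIO+OF arrays as well, and nr3c1 also without NOR replicate 1 or HBx,src DIO replicate 3. The cebpd call was lost without either NOR array, any DIO array or DIO+OF replicate 2 of its line, and without 5 single arrays of HBx,src. In HBx,src, nr5a2 was called higher in DIO+OF against NOR and against DIO, and 0 genes were called in DIO against NOR. The median difference with OF was 0.08 in HBx,src,p53 and -0.12 in HBx,src, against 0.04 and -0.01 over all genes.

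gata4, a zinc finger factor of endoderm and heart, measured 10.20, 10.43 and 10.70 in DIO+OF, 8.96, 9.30 and 9.02 in DIO, and 9.75 and 9.60 in NOR of HBx,src,p53. DIO+OF stood above both other groups without overlap, and the rise over DIO was 1.35 ± 0.22 (adjusted p = 0.00759), which was held in all 26 alternatives. In HBx,src it measured 8.47, 8.85 and 9.05 in DIO+OF, 7.65, 8.29 and 8.02 in DIO, and 8.29, 7.84 and 8.01 in NOR, a difference over DIO of 0.80 ± 0.22 (adjusted p = 0.126). The difference between the lines in this change was 0.55 ± 0.31 (adjusted p = 0.494).

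nr5a2, the nuclear receptor Lrh-1 of bile acid synthesis, measured 7.80, 8.11 and 8.37 in DIO+OF, 7.07, 7.01 and 7.08 in DIO, and 7.01, 6.57 and 7.12 in NOR of HBx,src. Its rise was 1.04 ± 0.20 over DIO (adjusted p = 0.0407) and 1.19 ± 0.20 over NOR (adjusted p = 0.0492), and these were held in 11 and 5 of 26 alternatives, with adjusted p up to 0.168 and 0.21. The call over DIO was lost without HBx,src NOR replicate 1, any DIO array or DIO+OF replicates 2 or 3 (0.90 to 1.05), and that over NOR was lost without any array other than HBx,src DIO+OF replicate 1. Its OF difference in HBx,src,p53 was -0.24 ± 0.20, and the lines differed by -1.27 ± 0.28 (adjusted p = 0.0531). nr0b2b, a zebrafish counterpart of the gene for the corepressor Shp, fell by 4.61 ± 1.05 in DIO+OF against NOR of HBx,src,p53 (adjusted p = 0.0283). It measured 5.18, 3.08 and 2.14 there, against 7.94 and 8.22 in NOR. DIO+OF replicates 2 and 3 lay near the array medians of 2.58 and 2.55, so the size of the fall is uncertain. The call was lost without either NOR array (-4.75 and -4.47, adjusted p = 0.114 and 0.171), without DIO+OF replicate 2 or 3 (-4.42 and -3.95, adjusted p = 0.0848 and 0.0851) and with the replicate block (-4.18, adjusted p = 0.061).

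Among 29 measured of 34 listed secreted products of hepatocytes, 25 had a positive difference for DIO+OF against DIO in HBx,src,p53 and 3 rose by test (f7, f10 and ttr), while in HBx,src 5 of 29 were positive and 0 were called. The median was 0.44 in HBx,src,p53 and -0.22 in HBx,src, against 0.04 and -0.01 over all genes. For DIO+OF against NOR in HBx,src,p53, 27 of 29 were positive (median 0.53) and 3 were called higher, f7, f10 and serpind1. Without DIO+OF replicate 3, 23 were positive (median 0.34) and f7 alone stayed called. The f10 and serpind1 calls against NOR were held in 18 and 7 of 26 alternatives, with adjusted p up to 0.198 and 0.397. Coagulation factor f7 measured 9.28, 9.64 and 10.20 in DIO+OF, 8.0, 7.72 and 7.63 in DIO, and 7.91 and 7.92 in NOR of HBx,src,p53. DIO+OF stood clear of both other groups. Its rise was 1.93 ± 0.23 over DIO (adjusted p = 0.00171) and 1.79 ± 0.26 over NOR (adjusted p = 0.00347), each held in all 26 alternatives. The calls with OF of the coagulation factor f10 (1.08, adjusted p = 0.0314) and of the thyroid hormone carrier ttr (0.98, adjusted p = 0.0289) were held in 17 and 20 of 26, with adjusted p up to 0.122 and 0.152. Both were lost without DIO+OF replicate 3 (0.83, adjusted p = 0.115, and 0.79, adjusted p = 0.111), without DIO+OF replicate 2 (1.15 and 1.03) and without DIO replicate 1 (1.09 and 0.85), and f10 also without DIO replicates 2 or 3. Without DIO+OF replicate 3, 24 of 29 secreted products were positive, the median was 0.27 and f7 was the 1 gene called. ttr was also called lower in DIO than in NOR of HBx,src,p53, held in 11 of 26 alternatives (adjusted p up to 0.317). Its DIO+OF values there, 9.90, 10.08 and 10.57, overlapped its NOR values, 9.90 and 10.35.

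In HBx,src f7 measured 7.60, 7.70 and 7.46 in DIO+OF, 6.68, 6.64 and 7.02 in DIO, and 6.49, 6.69 and 7.14 in NOR, with a difference over DIO of 0.80 ± 0.23 (adjusted p = 0.152). For the difference between the lines with OF, 28 of 29 secreted products were positive, with a median of 0.73 against 0.03 over all genes, and 1 was called, the apolipoprotein B gene apobb.1 (1.02 ± 0.21, adjusted p = 0.0464, held in 5 of 25 alternatives).

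Among 18 measured of 22 listed hepatocyte enzymes and proteins of metabolism, 16 had a positive difference with OF in HBx,src,p53, with a median of 0.55, and 2 rose by test (pck1 and g6pc1a.1). Without DIO+OF replicate 3, whose median over this list was 11.36 against 9.81 and 10.34 in the other DIO+OF arrays, 15 were positive with a median of 0.50 and 0 were called. In HBx,src 9 were positive, with a median of 0.04, and 0 were called. For DIO+OF against NOR in HBx,src,p53, 16 of 18 were positive (median 0.675) and 4 were called higher, g6pc1a.1, hgd, tdo2b and gc. The rises of hgd (1.48, adjusted p = 0.0253), tdo2b (5.45, 0.0351) and gc (1.45, 0.0425) were held in 22, 22 and 15 of 26 alternatives. Without DIO+OF replicate 3, 14 were positive (median 0.35) and g6pc1a.1 alone stayed called. pck1 measured 7.15, 9.61 and 11.40 in DIO+OF, 4.85, 2.56 and 4.92 in DIO, and 9.69 and 6.74 in NOR of HBx,src,p53. Its HBx,src values were 6.51, 8.13 and 10.18 in DIO+OF, 3.05, 3.85 and 3.72 in DIO, and 3.30, 3.19 and 3.76 in NOR. As for hnf4a, the DIO+OF arrays lay above the DIO arrays in both lines, and DIO lay below NOR in HBx,src,p53.

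The pck1 difference with OF was 5.28 ± 1.1 in HBx,src,p53 (adjusted p = 0.0304) and 4.74 ± 1.1 in HBx,src (adjusted p = 0.081). The lowest DIO arrays, 2.56 in HBx,src,p53 and 3.05 in HBx,src, lay near the array medians given above, so the sizes of both differences are uncertain. g6pc1a.1, which encodes the glucose-releasing glucose-6-phosphatase, rose by 2.10 ± 0.46 over DIO (adjusted p = 0.0368) and by 3.00 ± 0.51 over NOR (adjusted p = 0.00748) in HBx,src,p53. The pck1 call was held in 19 of 26 alternatives and was lost without any DIO array of the line (4.50 to 5.68), DIO+OF replicate 2 (5.17, adjusted p = 0.0812) or the array lacking vitellogenin (4.27, adjusted p = 0.125), with the line fitted alone (adjusted p = 0.132) and with array weights (4.73, adjusted p = 0.0519). The g6pc1a.1 call over DIO was held in 15 of 26. It was lost without the array lacking vitellogenin (1.57, adjusted p = 0.129), DIO+OF replicate 2 (2.32, 0.0602) or any DIO array of the line (1.93 to 2.28), and narrowly without HBx,src NOR replicates 1 or 3 or DIO+OF replicate 2 (2.10, adjusted p up to 0.0514). The fit of the line alone (adjusted p = 0.112), quantile normalization (0.0541) and array weights (0.0518) lost it too. Over NOR it was lost without NOR replicate 2 (2.77, adjusted p = 0.0756). The hepatocyte genes fabp10a and tdo2a, a tryptophan-degrading enzyme, had OF differences of 0.42 ± 0.21 and 0.15 ± 0.19 in HBx,src,p53 and 0.16 ± 0.21 and -0.03 ± 0.19 in HBx,src, all with adjusted p above the threshold (0.387, 0.784, 0.864 and 0.979).

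**Figure D5:**
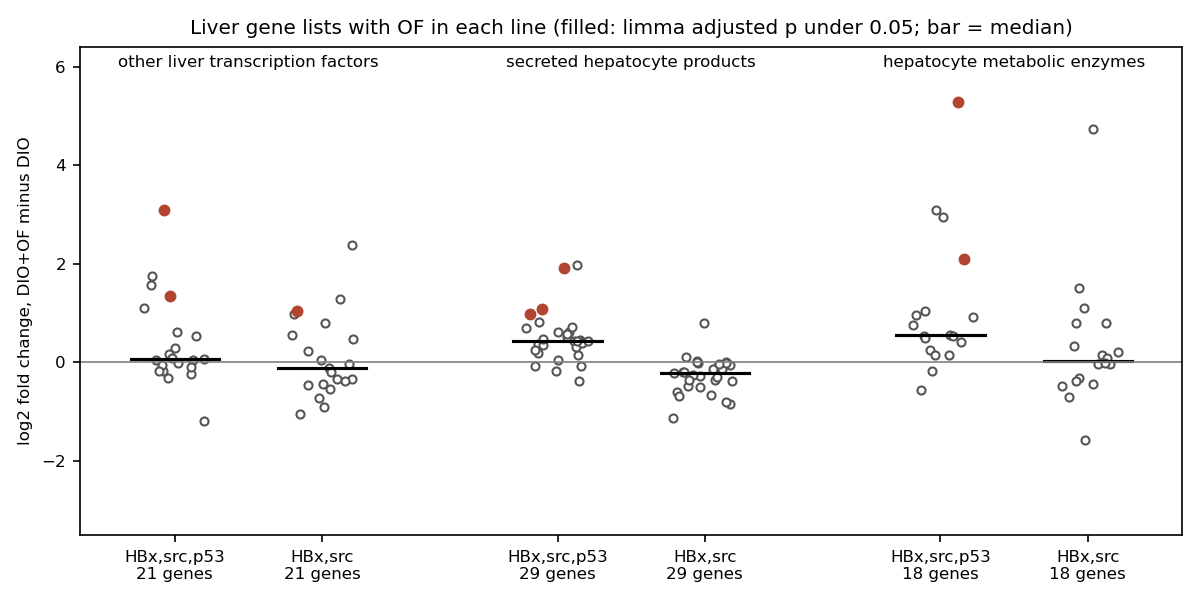
Log2 fold changes of DIO+OF against DIO for single genes of 3 liver lists in HBx,src,p53 (left of each pair) and HBx,src (right), with the median as a bar and filled points for an adjusted p under 0.05. The medians of secreted products are 0.44 and -0.22, and those of metabolic enzymes 0.55 and 0.04.

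Several members are also active outside hepatocytes, foxa2, prox1a and the Onecut genes in pancreas and bile duct among them, and marker lists of other cells were read beside them. Of 14 exocrine pancreas genes, 14 had positive differences between DIO and NOR in HBx,src,p53 (median 1.20), and 13 had negative ones between DIO+OF and DIO (median -0.92), with 0 called in either. Their median level per array was 6.17 to 10.04 in DIO+OF, 7.44 to 9.61 in DIO and 6.85 to 8.05 in NOR of that line. In HBx,src it was 3.84 to 4.45 in DIO+OF, 4.42 to 5.98 in DIO and 4.96 to 6.38 in NOR, with 13 of 14 genes lower in DIO+OF than in DIO (median -1.19) and 0 called. For DIO+OF against NOR in HBx,src,p53, where onecutl, foxa1 and foxa2 were called, 11 of 14 pancreas genes had positive differences (median 0.33, 0 called). Without DIO+OF replicate 3 it was 14 of 14 (median 1.15), and between DIO+OF and DIO 8 of 14 were negative (median -0.07). The pancreas list had the sign of these 3 members against NOR, in DIO+OF as in DIO. In replicates 1 to 3 of DIO+OF the list's median was 10.04, 7.29 and 6.17, and onecutl was 8.14, 9.74 and 10.54. In those of DIO the list's median was 7.44, 9.38 and 9.61, and onecutl was 6.66, 5.64 and 4.82. Within both of these HBx,src,p53 groups, of 3 arrays each, the list and onecutl ran in opposite order. The foxa1 values were 6.74, 6.60 and 7.20 in DIO+OF and 6.49, 6.70 and 6.04 in DIO. Those of foxa2 were 8.49, 8.67 and 8.47 in DIO+OF and 8.10, 7.92 and 8.04 in DIO. The part of pancreas tissue in these values was not tested.

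Of 8 bile duct genes, 0 were called in any of these comparisons, and in HBx,src,p53 their median level was 5.88 to 6.22 in DIO+OF, 5.30 to 6.19 in DIO and 6.14 to 6.30 in NOR. In that line 6 of 8 had negative differences between DIO and NOR (median -0.38). Positive differences were had by 7 between DIO+OF and DIO (median 0.15) and by 5 between DIO+OF and NOR (median 0.15). Of 5 measured endothelial and stellate cell genes, 3 had positive and 2 negative differences between DIO+OF and DIO in HBx,src,p53 (median 0.34). Not called were acta2 (0.34), hand2 (-0.19) and col1a1a (-0.33). Called higher were kdrl (1.32) and cdh5 (1.37), both of endothelium, held in 25 and 23 of 26 alternatives. The line fitted alone lost both (adjusted p = 0.0697 for kdrl and 0.101 for cdh5), and the cdh5 call was also lost without DIO replicate 1 (1.25, adjusted p = 0.0652) or DIO+OF replicate 3 (1.07, adjusted p = 0.0702). kdrl was also called higher in DIO+OF than in NOR (0.90, adjusted p = 0.0466), held in 9 of 26 alternatives and lost without DIO+OF replicate 3. The list's median level was 3.74 to 5.31 in DIO+OF, 3.51 to 5.10 in DIO and 4.12 to 4.95 in NOR. Of 10 ovary genes, 9 had negative differences between DIO+OF and DIO in HBx,src,p53 (median -0.81, 2 called lower, and 0 without DIO+OF replicate 3), with levels of 1.96 to 2.10, 2.48 to 3.04 and 1.98 to 2.21 in DIO+OF, DIO and NOR. The 2 were zp2.5 (-3.04, adjusted p = 0.0345) and gdf9 (-0.83, adjusted p = 0.0496). zp2.5 was also called higher in DIO than in NOR there (3.08, adjusted p = 0.0394). The ovary list's DIO+OF and NOR levels lay below the array medians of that line (2.55 to 2.68), and its DIO levels near them. The size of the list's differences is therefore uncertain.

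All 5 measured red blood cell genes had negative differences between DIO and NOR in HBx,src,p53 (median -0.99) and positive ones between DIO+OF and DIO (median 0.98), with 0 called in either. Among them the globin genes hbba2 and hbaa1 differed with OF by 1.47 ± 0.54 (adjusted p = 0.206) and 1.30 ± 0.46 (adjusted p = 0.195). The list's median level was 4.97 to 7.45 in DIO+OF, 4.22 to 4.94 in DIO and 5.23 to 6.07 in NOR, with the highest value in DIO+OF replicate 3, and the OF median was 0.33 without that array. Replicates 1 and 2 of DIO+OF were at 5.40 and 4.97. DIO was lowest for this list. By group mean DIO was also lowest in this line for the members hnf4a, foxa3, cebpa and prox1a. It was not lowest for foxa1, foxa2, onecut1 or onecutl. Among other genes, DIO was lowest for gata4, ttr, pck1, kdrl, cdh5, fabp10a and f7, but not for f10, nr3c1 or g6pc1a.1. In HBx,src the OF median of the list was 0.32, with 4 of 5 genes positive and 0 called. Of 5 intestine genes 1 was called, fabp2, a fatty acid binding protein of enterocytes, which was lower in DIO than in NOR of HBx,src,p53 (-2.79 ± 0.57, adjusted p = 0.0221). Of 7 leukocyte and 6 endocrine pancreas genes, 0 were called in any comparison of either line. The part of these cells in the members' differences was not tested.

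DIO+OF replicate 3 of HBx,src,p53, the array without vitellogenin, held the highest value of its group for hnf4a, foxa1, prox1a, onecut1, cebpa and onecutl. Its interquartile range was 3.34, against 3.01 and 2.89 in replicates 1 and 2. Without it, the members called in HBx,src,p53 were 0 for DIO+OF against DIO and 1 (onecutl) for DIO+OF against NOR. Over all 75212 probe sets, the calls fell from 1188 to 444 and from 2875 to 1732. Without DIO+OF replicate 2 they fell to 569 and 1265, and without replicate 1 to 1144 and 2402. The part of the vitellogenin loss of replicate 3 in these values was not tested.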

How the data were processed

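Liver RNA was labelled with biotin and hybridised to ZebGene 1.1 ST arrays. The authors made the values in Transcriptome Analysis Console and deposited them on what their range shows to be a log2 scale. How probes were summarised and normalised, the software version and the build were not given in the sources used here. A total of 75212 probe sets were listed with 0 missing values and 0 columns left unused. The annotation gave 1 symbol to 30358 probe sets (830 of them spelled in 2 letter cases, counted as 1), several to 1015, and did not list 43839. Levels of different probe sets were not compared, nor levels between the lines. No coordinates are given, since the build is unknown, and no sequence table was at hand.

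A linear model with a mean per group was fitted to the 17 arrays, with variances moderated by empirical Bayes in limma 3.58.1 under R 4.3.3 (11 residual and 2.67 prior degrees of freedom), as the study's methods name such a test. P values were adjusted over all probe sets by the Benjamini-Hochberg method and called under 0.05. The fit was tested on simulated data. Percentages of genes called are over 1 probe set per gene. The lists were described by counts and medians, without set tests. All members were named, and from each list up to 6 genes called in any comparison with the smallest p, with fabp10a and tdo2a always among them; endothelial genes were named by the same rule. For hnf4a and each called member, the 3 genes most alike were named, with clone and predicted names passed over. Members and lists were chosen with earlier results of these data known. Alternatives were a fit of each line alone, quantile normalization, centring arrays on the median, a fit without the dimmest 40% of probe sets, a fit of 1-symbol probe sets alone, a trended robust prior, weights per array, a block for the replicate number, the mean of a gene's probe sets, the methods' threshold (at least a 2-fold change with an unadjusted p under 0.05), and leaving out each array in turn. Other calculations used Python 3.11.15, pandas 2.3.3 and matplotlib 3.10.9. The number of arrays limits the precision.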

Additional observations from a re-analysis of the deposited data

Results flagged for a closer look

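The change with OF of the apolipoprotein B gene apobb.1 differed between the lines, by 1.02 ± 0.21 log2 units (HBx,src,p53 minus HBx,src, limma adjusted p = 0.0464), and this was called in 5 of 25 alternatives, with adjusted p up to 0.114. All HBx,src,p53 arrays were of batch 2 and all HBx,src arrays of batch 1, so a difference between the lines cannot be told apart from one between the batches.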

How the results depend on the processing

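The called differences of members kept their direction and call in 53 of 68 recomputations without an array and 32 of 36 under other settings, and those of the named list genes in 256 of 408 and 160 of 215. Differences of members that were not called kept their direction and stayed above the threshold in 987 of 1020 and 510 of 524. Members called in HBx,src for DIO+OF against NOR numbered 1 rather than 0 without the dimmest 40% of probe sets, with only 1-symbol probe sets and with array weights. Over all probe sets these settings called 89 of 45127, 117 of 30358 and 109 of 75212, against 61 of 75212 in the main fit. In HBx,src,p53, fitting the line alone called 2 members for DIO against NOR and 0 for DIO+OF against DIO, and 1 member was called for the difference between the lines with OF among 1-symbol probe sets. Over all 75212 probe sets, the line alone called 1431 for DIO against NOR, in place of 2192, and 308 for DIO+OF against DIO, in place of 1188. Among 30358 1-symbol probe sets, 895 were called for the difference with OF, against 583 of 75212 in the main fit. At the methods' threshold, in HBx,src,p53 it was 2 members for DIO+OF against DIO and 4 for DIO against NOR, in HBx,src 3 for DIO+OF against NOR and 3 for DIO+OF against DIO, and for the difference between lines 2 with overfeeding and 1 with OF. The cause of these shifts was not tested.

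The sign turned for prox1a with OF in HBx,src under quantile normalization (-0.0241) and with overfeeding there under centring (-3e-05), for hnf4a in DIO+OF against NOR of HBx,src,p53 with array weights (-0.12), for onecut1 in the difference between lines with overfeeding under the mean of probe sets (0.11), and for hnf4a in that with OF under quantile normalization (0.032) and the mean of probe sets (0.26). The OF differences in HBx,src of fabp10a under the mean of probe sets (-0.19) and of tdo2a under centring (0.0219) and the mean of probe sets (0.0803) turned too.

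Leaving out each array, members called ranged in HBx,src,p53 from 0 to 4 for DIO+OF against NOR, 0 to 1 against DIO and 0 to 1 for DIO against NOR, in HBx,src from 0 to 1 for DIO+OF against NOR and 0 to 1 against DIO, and from 0 to 1 for the difference with OF. Over all 75212 probe sets, calls in HBx,src ranged from 6 to 523 for DIO+OF against NOR and from 41 to 1910 against DIO. In HBx,src,p53 they ranged from 444 to 1241 for DIO+OF against DIO. With both NOR arrays kept, they were 1265 to 3425 for DIO+OF against NOR and 1249 to 2695 for DIO against NOR. For the difference with OF they were 64 to 1645. The estimates whose sign turned had these ranges. In HBx,src,p53, hnf4a for DIO+OF against NOR ranged from -0.26 to 0.24, cebpa and tdo2a with OF from -0.25 to 0.56 and -0.0341 to 0.28, and onecut1 with overfeeding from -0.10 to 0.36. In HBx,src, for DIO+OF against NOR, foxa1 ranged from -0.50 to 0.15, foxa2 from -0.22 to 0.20, prox1a from -0.23 to 0.46 and onecutl from -1.0 to 0.51. With OF there, prox1a ranged from -0.28 to 0.42, onecutl from -1.44 to 0.0754 and tdo2a from -0.15 to 0.11, and with overfeeding foxa3 from -0.70 to 0.39 and prox1a from -0.10 to 0.12. The difference between lines with OF ranged from -0.36 to 0.25 for hnf4a and from -0.0669 to 0.52 for onecut1.

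Samples with the same replicate number had r of their deviations from -0.08 to 0.05 in HBx,src,p53 and from -0.07 to 0.10 in HBx,src. In groups of 2 or 3 arrays these values cannot show if the numbers pair samples. The main fit took the samples as unpaired. With the replicate number as a block, the probe sets called for DIO+OF against DIO were 684 in HBx,src,p53, in place of 1188, and 0 in HBx,src, in place of 315. The members called for DIO+OF against DIO in HBx,src,p53 were 0, and hnf4a in DIO+OF against NOR there was at -0.13. With each line fitted alone the probe sets called for DIO+OF against DIO were 308 and 2. Calls that were higher in DIO made up 797 of 2192 probe sets for DIO against NOR in HBx,src,p53, 566 of 922 under quantile normalization. The number of arrays per group, 2 or 3, limits what could be called.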
